A study of Mus musculus with 8 samples.

Results

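The replacement histone genes are the histone genes whose messenger RNA is made throughout the cell cycle rather than mainly during DNA replication. The 9 genes described here were chosen by symbol. They are the linker histone gene H1f0, the H2A variant genes H2afz, H2afv, H2afx, H2afy, H2afy2 and H2afj, and the H3.3 genes H3f3a and H3f3b. All 9 were found among the 24420 genes counted in every library, and all 9 were among the 14809 that passed the filter on low counts.

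The study sequenced polyadenylated RNA of the mouse prefrontal cortex, and 8 libraries were analysed. The 3 wild-type libraries came from mice for which the labels name no treatment. The 3 saline libraries came from saline-treated Shank3-deficient mice, and the 2 romidepsin libraries from Shank3-deficient mice given romidepsin, an inhibitor of class I histone deacetylases. Deficient mice were heterozygous for a deletion of exon 21 of Shank3 on 1 of the 2 copies, which removes the C-terminal part of this postsynaptic scaffold protein. All mice were males, and wild-type mice were littermates. The sample labels give ages of 5 to 6 weeks, while the study's design text gives an upper age of 8 weeks. Injections into the peritoneum, of romidepsin at 0.25 mg/kg or of saline, were made on 3 days, 1 each day. The cortex was removed 1 day later. The labels do not say that each library came from a separate animal, so the p-values reflect spread among libraries, which may be technical.

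The libraries held between 7783538 and 15156318 reads assigned to genes. The labels call the cells neurons and the tissue cortical slices. Marker genes of other cells were present in every library. Summed levels of 10 genes per list were 12109 to 14071 CPM (CPM are read counts scaled to a common library total with TMM factors) for neurons, 5664 to 7447 CPM for astrocytes and 3117 to 5725 CPM for oligodendrocytes. For 10 microglial genes the sum was 525 to 730 CPM. In such bulk tissue, fewer cells of a type and less RNA per cell cannot be told apart. Shank3 was counted at 319 ± 26.1 CPM in wild type (SD, n = 3), 290 ± 33.7 in saline (SD, n = 3) and 314 ± 1.86 in romidepsin libraries (SD, n = 2). A count over the whole gene includes the exons that remain, so it does not check the genotype.

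DNA in the nucleus is wound around histones, and a long-lived neuron that no longer divides must replace worn histones without the burst of synthesis that accompanies replication. H3.3, H2A.Z and macroH2A are put in place by dedicated chaperones and remodelling complexes, and H3.3 is known to accumulate in neurons with age. H1f0 encodes a linker histone of differentiated cells and is a textbook responder to deacetylase inhibitors in cultured cells. The comparisons ask whether the levels of these genes differed with the Shank3 deletion and with romidepsin.

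The H3.3 pair and the H2A.Z pair are shown first, because in each pair nearly the same protein is encoded by 2 genes whose messenger RNAs can be told apart by sequence. H3f3a and H3f3b encode H3.3, the H3 variant laid down at active genes and, by other chaperones, at telomeres and repeats. Their coding sequences have 411 bases each and differ at 95, with differences in 83 of 137 codons, yet translation gives 0 differing residues of 136. The first 120 coding bases are given with the 24 that differ between the genes in capitals.
H3f3a: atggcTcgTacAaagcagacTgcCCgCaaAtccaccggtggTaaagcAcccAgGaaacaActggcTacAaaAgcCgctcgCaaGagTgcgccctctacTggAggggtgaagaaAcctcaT
H3f3b: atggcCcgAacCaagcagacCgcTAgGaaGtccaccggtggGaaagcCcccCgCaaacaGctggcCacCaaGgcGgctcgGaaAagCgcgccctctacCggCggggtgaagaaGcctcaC
H2afz and H2afv encode H2A.Z, a variant found at the nucleosomes that flank promoters. Their coding sequences have 387 bases each and differ at 81, and the proteins differ at 3 of 128 residues. Capitals again mark the differing bases, here 28 of the first 120.
H2afz: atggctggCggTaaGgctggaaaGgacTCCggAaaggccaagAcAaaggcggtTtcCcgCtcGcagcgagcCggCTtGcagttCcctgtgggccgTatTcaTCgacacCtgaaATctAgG
H2afv: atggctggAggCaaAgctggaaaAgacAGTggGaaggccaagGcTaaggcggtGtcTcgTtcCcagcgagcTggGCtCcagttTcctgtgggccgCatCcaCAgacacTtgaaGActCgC
The longest stretch shared by the full transcripts was 23 bases for the H3.3 pair and 14 bases for the H2A.Z pair, so the genes of a pair can be counted apart.

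The other members are less alike. H2afy and H2afy2 encode the macroH2A proteins, H2A variants with a large globular macro domain that are linked to silent chromatin. Over 372 residues 66.9% were identical. H2afx encodes H2A.X, the variant phosphorylated around DNA breaks, and H2afj encodes H2A.J, a variant described in senescent cells. H2A.X and H2A.J were identical at 91.5% of the 129 residues of the shorter protein. H1f0 encodes the linker histone H1.0, which had lysine at 28.4% of its 194 residues, against 9.09% to 12.6% for the 8 core variants.

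By the GENCODE M21 annotation of GRCm38, 3 members are genes of a single exon. These are H1f0 (chr15:79028450-79030504, plus strand), H2afx (chr9:44334694-44336077, plus strand) and H2afj (chr6:136808244-136810074, plus strand). H2afz (chr3:137864487-137866922, plus strand) and H2afv (chr11:6427229-6444443, minus strand) have 5 exons in their main transcripts. H2afy (chr13:56073619-56136361) and H2afy2 (chr10:61738665-61784147), both on the minus strand, have 9. H3f3a (chr1:180800832-180813943) and H3f3b (chr11:116021912-116027962), also on the minus strand, have 4 and 6.

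Replication-dependent histone messengers end in a stem-loop in place of a poly(A) tail, which is why a library of polyadenylated RNA captures few of them. The stem-loop letters GGNNNTTTTNAGNNCC were searched for over the whole of each gene's longest protein-coding transcript, on the transcript's strand. They matched in 64.2% of 67 replication-dependent histone genes and in 0.521% of 21877 protein-coding genes. Neither pairing of the letters nor a place near the 3′ end was required. Of the 9 replacement genes 1 held a match, H2afx, starting 47 bases after the stop codon. This match is shown with the paired bases of the stem in capitals.
H2afx: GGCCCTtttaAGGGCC
H2afx also carried the poly(A) signal ATTAAA near its end. A signal of 1 of the forms AATAAA or ATTAAA lay in the last 40 bases of 7 of 9 members, of 70% of all protein-coding genes and of 25.4% of replication-dependent histone genes. H2afy and H3f3b were the members without one.

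The promoters of the H2A.Z genes are shown because these are 2 genes of nearly the same protein at different levels. The 250 bases before the start of each, from RefSeq on GRCm38.p6, are given with matches to CCAAT (or ATTGG, its reverse complement) and GGGCGG (or CCGCCC) in capitals. The H2afz stretch is chr3:137864237-137864486 on the plus strand, and the H2afv stretch chr11:6444444-6444693 on the minus strand.
H2afz: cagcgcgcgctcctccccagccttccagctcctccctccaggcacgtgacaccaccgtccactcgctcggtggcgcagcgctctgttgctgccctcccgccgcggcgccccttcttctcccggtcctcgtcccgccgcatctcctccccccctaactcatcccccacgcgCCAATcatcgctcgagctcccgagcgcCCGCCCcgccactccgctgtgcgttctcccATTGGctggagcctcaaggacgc
H2afv: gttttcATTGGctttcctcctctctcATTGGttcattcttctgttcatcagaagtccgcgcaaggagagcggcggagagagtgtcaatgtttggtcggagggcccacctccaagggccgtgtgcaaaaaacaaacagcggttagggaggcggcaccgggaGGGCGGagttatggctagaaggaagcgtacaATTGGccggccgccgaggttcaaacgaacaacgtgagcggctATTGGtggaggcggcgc
In these stretches H2afz had 2 matches to CCAAT and H2afv had 4, and each had 1 match to GGGCGG. RefSeq's promoter table, with windows of 300 bases that reach 50 bases past the start, held 8 of the 9 members, all but H2afx. On both strands, CCAAT was found in 6 of 8 windows, against 37.4% of 32851 promoters of the same length. GGGCGG was found in 6 of 8, against 35.7%. TATAAA was found in 1 of 8, that of H3f3b, against 13.6%. These matches are letters in a window and not measured binding sites.

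Every member was expressed in every library. Compared per length, as CPM per kilobase of exon averaged over the 8 libraries, H2afz had the highest level at 106. H3f3b followed at 55.1, H1f0 at 45.2, H3f3a at 33.4 and H2afy at 30.5. H2afj stood at 17.3, H2afx at 15.8 and H2afv at 15.6, and H2afy2 was lowest at 8.66. The lowest H2afz library was above the highest H3f3b library, and the ranges of H1f0 and H3f3a, of H2afy and H2afj, and of H2afv and H2afy2 were likewise apart. Other neighbours overlapped. H3f3b was nonetheless above H1f0 in 8 of 8 libraries, H3f3a above H2afy in 7 of 8 and H2afj above H2afx in 7 of 8, whereas H2afx was above H2afv in 4 of 8.

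**Figure D1:**
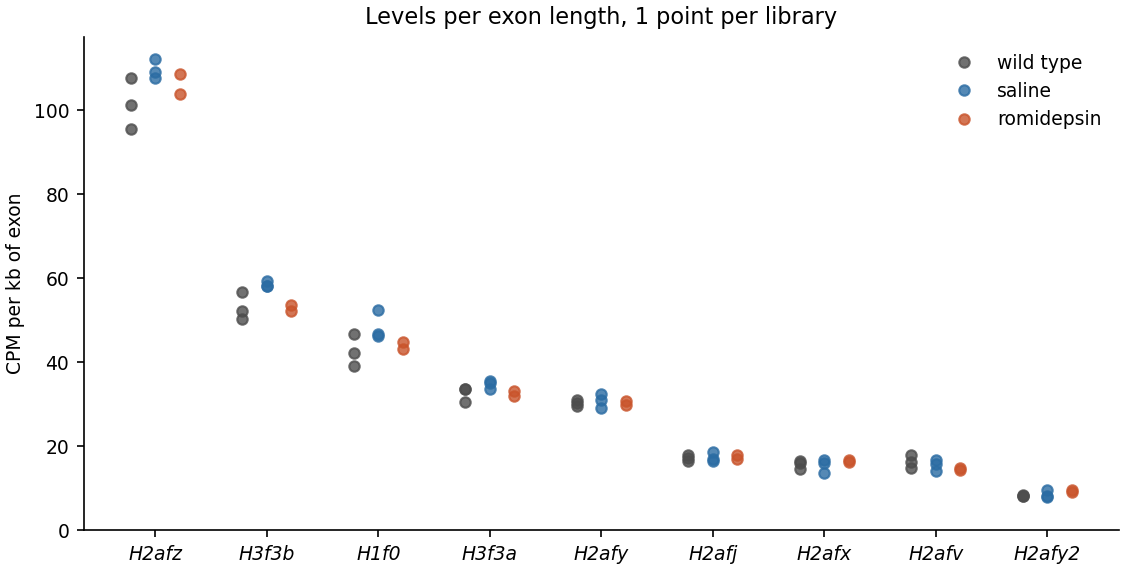
Level of each replacement histone gene per length, as CPM per kilobase of exon on an axis from 0, with 1 point per library, coloured by group. H2afz lies highest at a mean of 106 and H2afy2 lowest at 8.66, and neighbours such as H2afx and H2afv overlap.

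These levels carry an uncertainty from sequence shared with other genes. Each transcript was cut into windows of 50 bases, a length set here since the read length is not given in the sources used here. Each window was looked for, on either strand, in the transcripts of other genes, including genes that overlap the member itself. The shared part was 69.6% for H2afz and 30.3% for H3f3a, in both cases with unnamed predicted genes among the sharers, 15.4% for H2afy2, 0% for H2afv and 5.68% to 9.66% for the other 5 members. For H1f0 and H2afy the only sharer was an overlapping gene on the opposite strand, and H3f3a shares 638 exonic bases with such a gene, Gm17275. Such overlap is not a copy elsewhere in the genome, so the shared part can overstate copies. Reads from stretches copied elsewhere may have been dropped as not unique, so the levels of H2afz and H3f3a in particular are uncertain. H2afy2 shares 233 exonic bases with Aifm2 on the opposite strand, which had 77 to 191 counts per library. Without the strand setting of the counting, reads from these 233 bases cannot be assigned to 1 gene.

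H1f0 is the member known as a responder to drugs of this class. Its level in wild-type replicates 1 to 3 was 95.9, 86.8 and 80.2 CPM, in saline replicates 94.9, 96.1 and 107.6 CPM, and in romidepsin replicates 92.2 and 88.9 CPM. The saline and wild-type libraries overlapped, and both romidepsin libraries lay below all saline libraries and within the wild-type range. H1f0 thus stood at 87.6 ± 7.86 CPM in wild type (SD, n = 3), 99.5 ± 7.005 in saline (SD, n = 3) and 90.6 ± 2.34 in romidepsin libraries (SD, n = 2). The difference between romidepsin and saline was 0.911-fold, with a 95% interval of 0.792 to 1.05, and did not pass the test (edgeR quasi-likelihood, adjusted p = 1.00, unadjusted p = 0.179). Between saline and wild type, H1f0 had the smallest p of the 9 members. The log2 difference was 0.18 (SE 0.084), with an unadjusted p of 0.0471 and a Benjamini-Hochberg adjusted p of 0.584 in edgeR. It was 0.12 when either wild-type or saline replicate 3 was left out, and 0.25 when wild-type replicate 1 was. Between romidepsin and saline the log2 difference of H1f0 was -0.13, and -0.078 without saline replicate 3.

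H3f3b was the 1 member whose saline libraries did not overlap with either other group. The share of all genes with both separations was not counted. Taken singly, 12.6% of all genes did not overlap between saline and wild type and 20.9% between romidepsin and saline. Wild-type libraries had 142.6, 131.2 and 126.7 CPM, saline libraries 146.2, 146.3 and 149.4 CPM, and romidepsin libraries 135.0 and 131.5 CPM. All 3 saline libraries lay above the other 5. The log2 difference of saline against wild type was 0.14 (SE 0.071, edgeR adjusted p = 0.611), and that of romidepsin against saline was -0.14 (SE 0.080, adjusted p = 1.00). Neither passed. The saline libraries enter both comparisons, so their values are given side by side and not as 2 separate results. Romidepsin and wild-type libraries of H3f3b differed by 0.998-fold, with a 95% interval of 0.887 to 1.12.

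H3f3a had 91.6, 101.0 and 101.2 CPM in wild-type, 101.1, 106.5 and 104.9 CPM in saline, and 99.6 and 95.6 CPM in romidepsin libraries. Both romidepsin libraries lay below the saline libraries, while saline and wild type overlapped. The log2 difference was 0.09 for saline against wild type and -0.09 for romidepsin against saline, and neither passed. Without wild-type replicate 1 the first was 0.042.

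**Figure D2:**
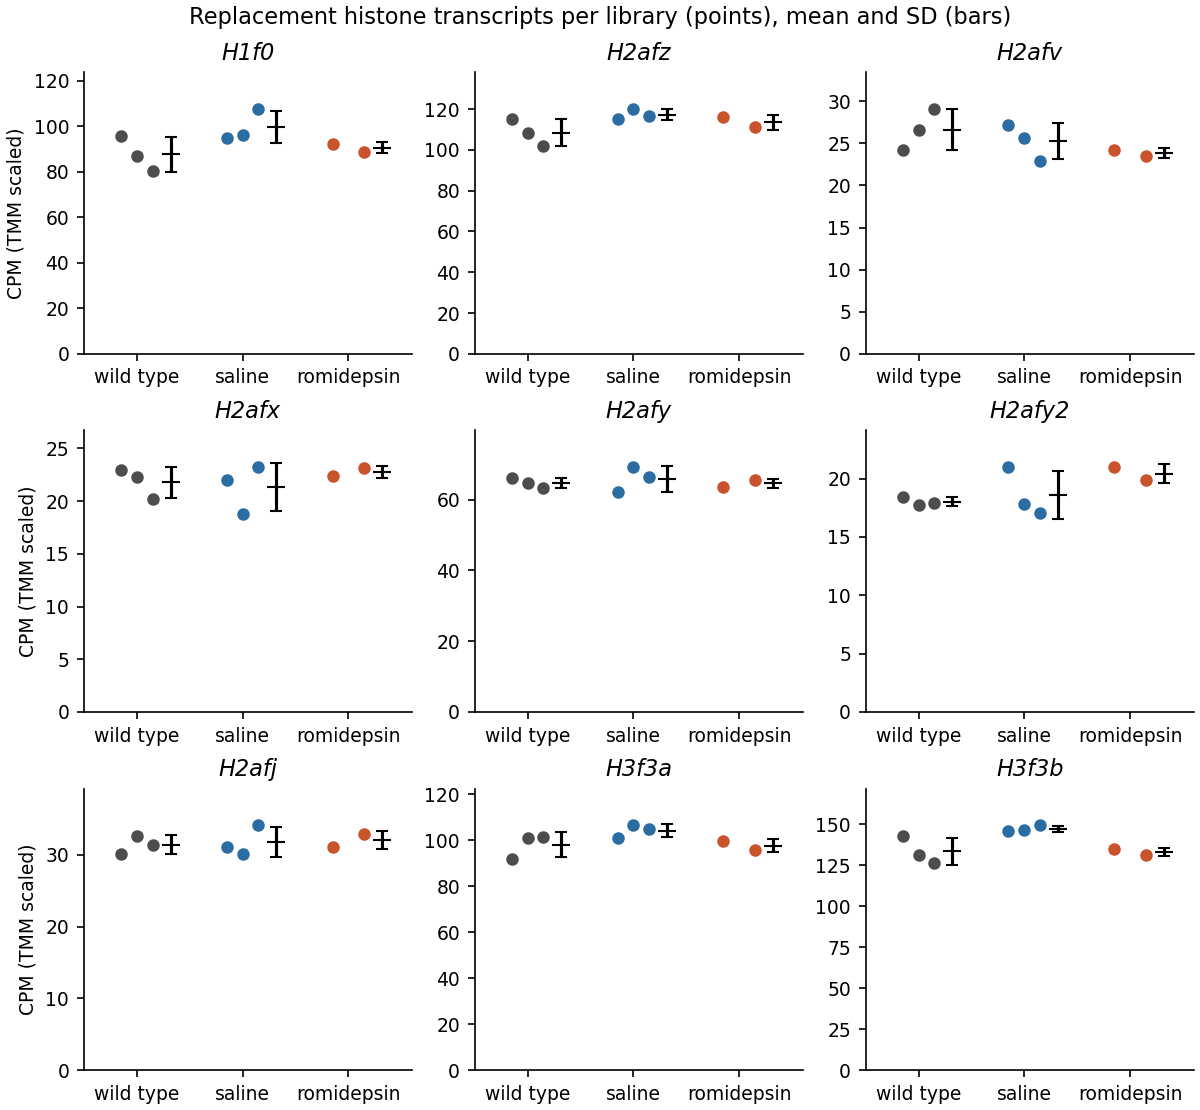
Level of each of the 9 replacement histone genes in CPM, with 1 point per library by group (wild type, saline, romidepsin), bars for the group mean and SD, and each panel on its own scale from 0. The 3 saline points of H3f3b lie above the other 5 libraries, whereas those of H2afj, H2afx and H2afy overlap with both other groups. The share of all genes with such a separation was not counted.

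Of the H2A.Z genes, H2afz had 115.1, 108.4 and 102.1 CPM in wild-type, 115.1, 120.1 and 116.7 CPM in saline, and 116.2 and 111.0 CPM in romidepsin libraries. The groups overlapped in all 3 comparisons. H2afv had 24.3, 26.6 and 29.1 CPM in wild-type, 27.1, 25.7 and 23.0 CPM in saline, and 24.2 and 23.5 CPM in romidepsin libraries. Its romidepsin libraries lay below the wild-type libraries, by a log2 difference of -0.16 (SE 0.12, edgeR adjusted p = 0.999), which did not pass and was -0.10 without wild-type replicate 3.

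Of the macroH2A genes, H2afy ranged from 62.0 to 69.2 CPM over the 8 libraries, and its group means were 64.6 ± 1.47 CPM in wild type (SD, n = 3), 65.8 ± 3.58 in saline (SD, n = 3) and 64.6 ± 1.35 in romidepsin libraries (SD, n = 2). H2afy2 had 18.4, 17.7 and 17.9 CPM in wild-type, 21.0, 17.8 and 17.1 CPM in saline, and 21.0 and 19.9 CPM in romidepsin libraries. Both romidepsin libraries lay above the wild-type libraries, by a log2 difference of 0.18 (SE 0.13, edgeR adjusted p = 0.999) that did not pass. Saline replicate 1 was as high as the romidepsin libraries.

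H2afx and H2afj overlapped between the groups in every comparison. H2afx lay between 18.8 and 23.2 CPM, with both extremes in saline libraries, and H2afj between 30.1 and 34.1 CPM. The interval of the fold between romidepsin and saline was 0.885 to 1.29 for H2afx and 0.866 to 1.18 for H2afj.

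Set together, 0 of 9 members passed at an adjusted p under 0.05 in any comparison. Over all genes tested, edgeR called 0.00675% between saline and wild type, 0% between romidepsin and saline, and 0.00675% between romidepsin and wild type, so a count of 0 among 9 is near the background. At an unadjusted p under 0.05 there was 1 member, H1f0, between saline and wild type, where 8.39% of all genes tested reached it, and 0 members between romidepsin and saline and between romidepsin and wild type, where 3.26% and 3.24% did. DESeq2 and limma-voom passed 0 members as well.

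Members whose groups did not overlap were counted beside the same share over all genes. Between saline and wild type this was so for 1 member, H3f3b, which was higher in saline, where 12.6% of all genes did not overlap and 6.26% were also higher. Between romidepsin and saline it was so for 3 members (H1f0, H3f3a and H3f3b), all lower after romidepsin, where 10.2% of all genes did not overlap and were lower, and 20.9% did not overlap in either direction. Between romidepsin and wild type it was so for 2 members, H2afv (lower) and H2afy2 (higher), where 18.4% of all genes did not overlap, 9.08% lower and 9.34% higher. With library totals in place of TMM scaling, the first of these counts was 3 (H1f0, H2afz and H3f3b, all higher in saline) and the last was 1 (H2afy2). The share over all genes was not computed with library totals, so these counts have no background beside them. The median log2 difference of the 9 members was 0.06, -0.05 and 0.03 in these comparisons, and that of all genes tested was 0.0047, -0.0029 and 4.2e-05.

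The intervals give a range for each gene taken singly, from spread among these libraries, which may be technical. For the 9 members the 95% intervals of the fold ran from 0.814 to 1.29 for saline against wild type, from 0.784 to 1.32 for romidepsin against saline, and from 0.749 to 1.37 for romidepsin against wild type. For H1f0 the upper end after romidepsin was 1.05-fold the saline level.

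**Figure D3:**
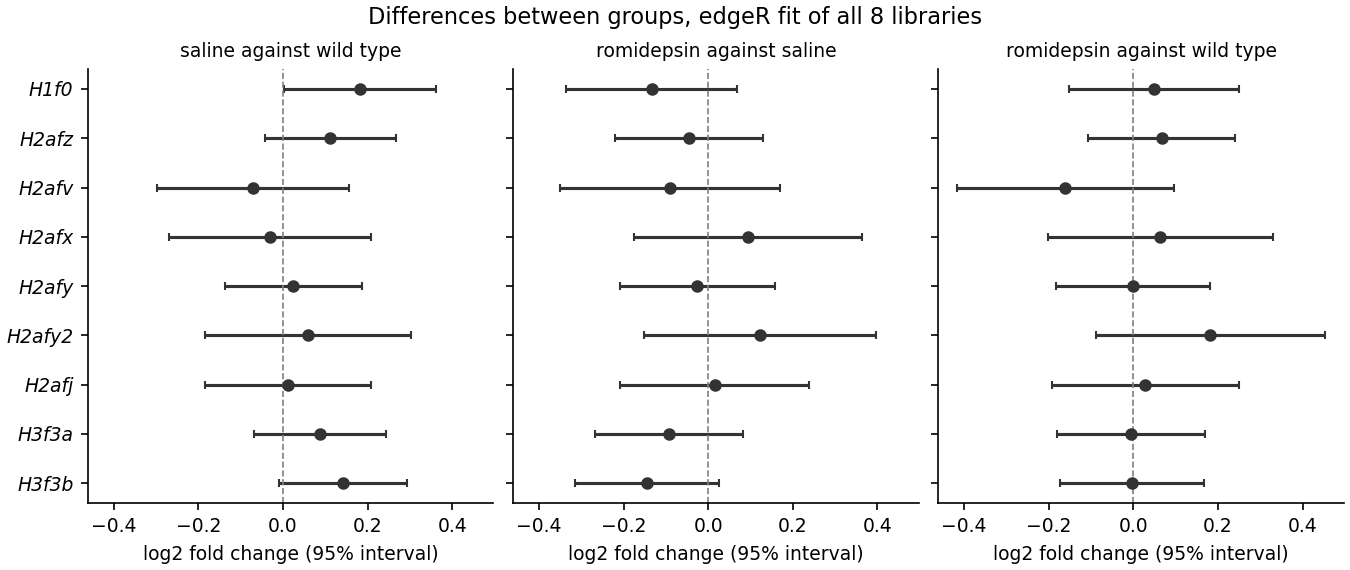
Log2 difference of each of the 9 replacement histone genes in the 3 comparisons, with bars for the 95% interval from edgeR. No member passed, and the interval of H1f0 between saline and wild type lies above 0 only before adjustment over all 14809 genes tested.

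The summed level of the 9 members was 607, 591 and 572 CPM in wild-type, 621, 630 and 642 CPM in saline, and 605 and 592 CPM in romidepsin libraries. The saline sums lay above the other 5 libraries, as did the saline levels of H3f3b, which is part of the sum. How often sums of other genes do so was not counted. Marker genes of other cells and of neighbouring tissue were summed and compared in the same way. Of 10 oligodendrocyte genes, 10 were lower in romidepsin than in saline, where 51% of all genes tested were, with a median log2 difference of -0.21. Against wild type 10 were lower too (median -0.30), where the median of all genes tested was 4.2e-05. The oligodendrocyte sum was 3426 to 3948 CPM in romidepsin libraries. That lay within the ranges of wild-type (3178 to 5185 CPM) and saline libraries (3117 to 5725 CPM). Of 10 microglial genes, 9 were higher and 1 lower than in saline (median 0.08), and 10 were higher than in wild type (median 0.15). The microglial sum was 525 to 723 CPM in wild-type, 579 to 651 in saline and 640 to 730 in romidepsin libraries, which overlap. Against saline 1 gene of each list had an unadjusted p under 0.05 in edgeR. Other lists follow.

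Of 13 genes of meninges and fibroblasts, 13 were higher in saline than in wild type, with a median log2 difference of 0.68, and 9 had an unadjusted p under 0.05, where 8.39% of all genes tested did. All 13 were lower in romidepsin than in saline, with a median of -0.31 and 0 at an unadjusted p under 0.05. Their sum was 115 to 183 CPM in wild-type, 123 to 284 in saline and 144 to 215 in romidepsin libraries. Of 14 genes of endothelium and pericytes, 10 were lower in saline than in wild type, with a median of -0.35 and 7 at an unadjusted p under 0.05, and 13 were higher in romidepsin than in saline, with a median of 0.24. Their sum was 375 to 467 CPM in wild-type, 294 to 398 in saline and 361 to 432 in romidepsin libraries.

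Of 12 tested genes listed for olfactory bulb and septum, 11 were higher in saline than in wild type, with a median log2 difference of 0.69 and 3 at an unadjusted p under 0.05. Whether these genes are confined to those tissues was not tested. Between romidepsin and saline 10 of the 12 were lower, with a median of -0.90, and 5 had an unadjusted p under 0.05, where 3.26% of all genes tested did. In that comparison 8 of the 12 had groups that did not overlap, where 20.9% of all genes did not. The sum of all 13 in the tables was 266 to 298 CPM in wild-type, 287 to 338 in saline and 283 to 289 in romidepsin libraries. Much of it was Reln, which was among the genes not lower in romidepsin than in saline. Reln was at 83.6 CPM in wild type, 90.6 in saline and 95.1 in romidepsin libraries.

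Markers of dividing cells were split in direction. Of the 16 tested, 8 were higher and 8 lower in saline than in wild type, and 5 higher and 11 lower in romidepsin than in saline. The sum of all 20 was 107 to 113 CPM in wild-type, 114 to 124 in saline and 106 to 107 in romidepsin libraries. Without Pcna, the sliding clamp of DNA replication and repair, the saline sums no longer lay above the wild-type sums. Pcna was at 38.0 ± 2.59 CPM in wild type (SD, n = 3), 45.8 ± 3.31 in saline (SD, n = 3) and 38.8 ± 1.41 in romidepsin libraries (SD, n = 2), and did not pass between saline and wild type (edgeR adjusted p = 0.436). The sum of the other 19, taken after the values were seen, overlapped, at 68.1 to 76.5 CPM in wild-type and 67.1 to 75.7 in saline libraries. In romidepsin libraries that sum was 67.3 to 68.0 CPM, within the saline range and still below the wild-type libraries. Tyms, an enzyme of thymidylate synthesis, was at 2.62 CPM in wild type and 1.79 in saline. Of the genes in these lists of markers, 0 passed the adjusted test in edgeR, and none was at 0 in all libraries. The saline libraries are shared by both comparisons, and the part of these cells and tissues in the members' levels was not tested.

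Shares within a pair do not depend on how libraries are scaled. H3f3b made up 57.7% ± 2.83 of the counts of both H3.3 genes in wild-type (SD, n = 3), 58.6% ± 0.640 in saline (SD, n = 3) and 57.7% ± 0.260 in romidepsin libraries (SD, n = 2). H2afz made up 80.2%, 82.3% and 82.7% of H2A.Z counts in the same order. H2afy made up 78.2%, 77.9% and 76.0% of macroH2A counts. Shares of counts do depend on exon length. Per kilobase of exon, H2afz made up 86.1%, 87.6% and 87.9% of its pair and H3f3b 61.9%, 62.8% and 62.0%. The unlike shared sequence of H2afz (69.6%) and H2afv (0%) was not corrected for. In 9 exact two-sided permutation tests of the shares of counts, the smallest p was 0.1, for H2afy between romidepsin and wild type, and its adjusted p was 0.675. The smallest p such groups can give is 0.1, so no share could have passed.

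Behind that value, H2afy's share was 78.2%, 78.5% and 78.0% in wild-type and 75.2% and 76.7% in romidepsin libraries, and these did not overlap. In saline libraries the share was 74.7%, 79.5% and 79.5%. Saline replicate 1 stood apart from the other two, and it also had the highest H2afy2 level of its group. Without it, the difference in H2afy share between saline and wild type changed from -0.279 to 1.32 percentage points.

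**Figure D4:**
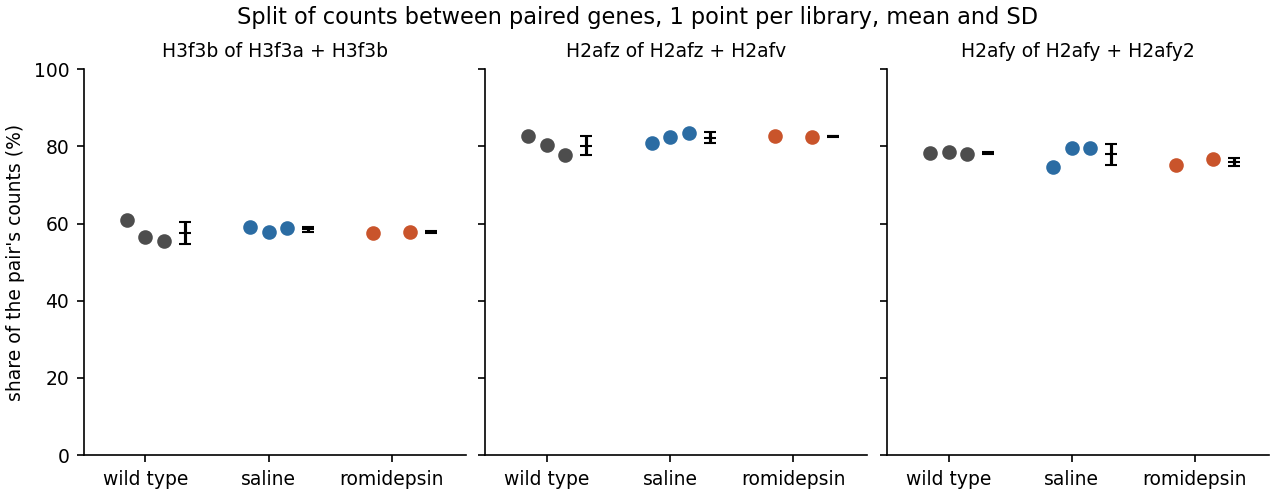
Share of each pair's counts that falls on the gene named, in percent, with 1 point per library and bars for the group mean and SD. The H3f3b share lies near 58% in each group, and the H2afy share of saline replicate 1 lies at 74.7%, below the other saline libraries.

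To see which other genes followed the same course, each library's log2 level was centred on the gene's mean and compared by the root mean square difference over the 8 libraries, among the 8822 genes whose log2 CPM averaged 4 or more. For H1f0 the nearest were Timm22 (0.039), Cox11 (0.047) and Abtb1 (0.048), with H3f3b the nearest member (0.052). For H2afz they were Sdha, Hdac11 and Pcbp1 (0.026 to 0.027), and for H3f3b they were Psmb6, Fam73a and Ostm1 (0.025 to 0.030). H2afz and H3f3b were each other's nearest member, at 0.045. These distances describe 8 libraries and carry no test.

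The replication-dependent histone genes gave little signal beside the replacement genes. Of 68 in the tables, 22 had no read in any library and 59 were below 1 CPM in all, and 6 passed the filter. Their sum was 56.1 to 68.7 CPM per library. The most abundant were Hist3h2a, Hist1h2bc and Hist3h2ba, at 17.8, 12.03 and 8.83 CPM in wild type. Genes entered this list by symbol alone (Hist, a digit and h), and Hist3h2a and Hist3h2ba are also in the list of other variant genes. Hist1h1c, which encodes the linker histone H1.2, was at 6.24 ± 0.428 CPM in wild type (SD, n = 3) and 8.70 ± 1.71 in saline libraries (SD, n = 3), a log2 difference of 0.47 that did not pass (edgeR adjusted p = 0.530). H1fx, which encodes the linker histone H1.10, was at 16.7 CPM in wild type, 14.8 in saline and 17.2 in romidepsin libraries. Of the 4 other variant genes tested, Hist3h2a and Hist3h2ba among them, 0 passed.

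Genes that place the variants were followed by lists. Over all genes tested, 51.3% were higher and 48.7% lower in saline than in wild type, and 49% were higher and 51% lower in romidepsin than in saline. Of the genes that deposit H3.3, 10 were tested, and 4 were higher and 6 lower in saline than in wild type, with 0 past the test and a median log2 difference of -0.04. Asf1a, a chaperone that passes H3.3 on to the Hira complex, was at 11.6 ± 2.14 CPM in saline (SD, n = 3) and 9.36 ± 0.139 in romidepsin libraries (SD, n = 2). Atrx, the remodeller that works with Daxx at repeats, was at 238 CPM in wild type, 245 in saline and 231 in romidepsin libraries. Between romidepsin and saline 5 genes were higher and 5 lower, and 0 passed.

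Of 28 genes of the complexes that insert or remove H2A.Z, 15 were higher and 13 lower in both of these comparisons, and 0 passed. Their medians were 0.02 and 0.02 on the log2 scale. Ep400, an ATPase that exchanges H2A.Z, was at 99.9 ± 6.24 CPM in saline (SD, n = 3) and 111 ± 0.940 in romidepsin libraries (SD, n = 2). Trrap, a scaffold of the same complex, was at 184 ± 9.86 and 204 ± 6.44 CPM. Both had groups that did not overlap, as did 9 of the 28 genes, where 20.9% of all genes tested did.

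The general histone chaperones tested were 20. Of these, 15 were higher and 5 lower in saline than in wild type, with a median log2 difference of 0.08. At an unadjusted p under 0.05 there were 4 of 20, where 8.39% of all genes tested reached it, and 0 passed the adjusted test. Nucleolin (Ncl), a nucleolar protein with chaperone activity, had 228, 214 and 202 CPM in wild-type, 249, 272 and 249 CPM in saline, and 234 and 234 CPM in romidepsin libraries. Its log2 difference of saline against wild type was 0.26 (SE 0.074), with an adjusted p of 0.359 in edgeR. Nap1l5, a brain-enriched member of the nucleosome assembly protein family, was at 329 ± 33.8 CPM in wild type (SD, n = 3) and 386 ± 11.9 in saline libraries (SD, n = 3), and Set, a chaperone of the same family, at 155 ± 1.90 and 176 ± 12.1 CPM. After romidepsin, 7 of the 20 were higher and 13 lower than in saline, with a median of -0.08. Here 12 of 20 had groups that did not overlap, where 20.9% of all genes did not, and 0 passed. The saline libraries are shared by both counts.

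The kinases, phosphatases and readers of phosphorylated H2A.X gave 4 higher and 9 lower of 13 in saline against wild type, and 6 higher and 7 lower in romidepsin against saline, with 0 past the test. Eya2, of a family of tyrosine phosphatases that act on H2A.X, was near the lower end of detection at 0.977 ± 0.385 CPM in wild type (SD, n = 3) and 2.27 ± 1.09 in saline libraries (SD, n = 3). Mdc1, which binds phosphorylated H2A.X, was at 22.8 and 19.4 CPM. Of 10 enzymes and binding partners linked to macroH2A and ADP-ribose, 4 were higher and 6 lower in the first comparison and 5 and 5 in the second. Parp1, the main ADP-ribose polymerase, was at 73.0 CPM in wild type, 68.1 in saline and 74.4 in romidepsin libraries.

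A last list held 16 genes known from cultured cells to respond to deacetylase inhibitors, H1f0 among them. Between romidepsin and saline 4 were higher and 12 lower, with a median log2 difference of -0.11. At an unadjusted p under 0.05 there were 2 of 16, where 3.26% of all genes tested reached it, and 0 passed the adjusted test. Gadd45b, a stress-induced gene linked to DNA demethylation, had 10.4, 14.4 and 13.3 CPM in saline and 9.36 and 8.13 CPM in romidepsin libraries, a log2 difference of -0.52 (SE 0.19, edgeR adjusted p = 1.00). Txnip, an inhibitor of thioredoxin, was at 22.2 ± 3.91 CPM in saline (SD, n = 3) and 17.2 ± 3.74 in romidepsin libraries (SD, n = 2). Cdkn1a, which encodes the cell cycle inhibitor p21, was at 40.4 ± 4.28 CPM in wild type (SD, n = 3), 33.8 ± 5.87 in saline (SD, n = 3) and 36.6 ± 5.83 in romidepsin libraries (SD, n = 2), with all groups overlapping. All of these levels are from the single time of 1 day after treatment ended.

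**Figure D5:**
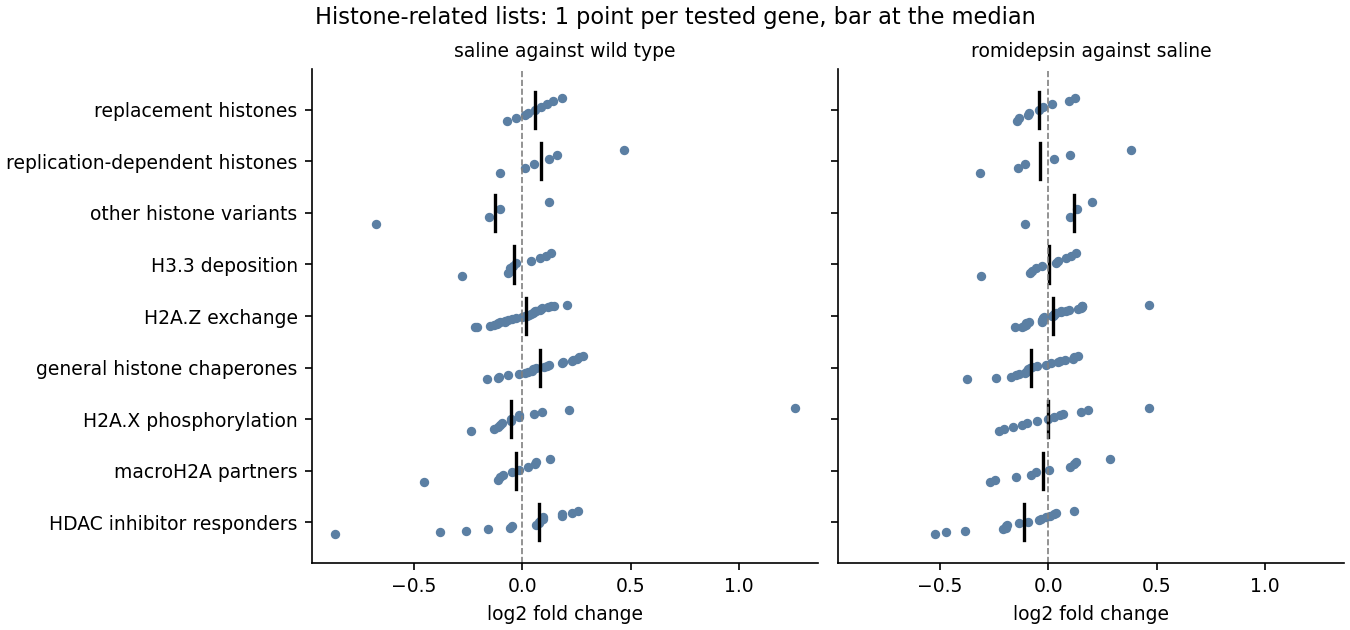
Log2 differences of the tested genes of each list, with 1 point per gene and a bar at the list's median, for saline against wild type and romidepsin against saline. The medians of the chaperone list are 0.08 and -0.08, and no gene of the lists named in the text passed the test.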

How the data were processed

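The authors deposited raw counts of reads per gene symbol, 1 table per library. Per the submitters' processing notes, bcl2fastq 2.17.1.14, TopHat2 2.1.1 and HTSeq 0.6.1 were used with mm10/GRCm38; annotation and strand setting: not given in the sources used here. Of the counted alignments, 32.4% to 35.3% fell on genes and 15.5% to 18.1% were not unique, in the 7 tables that hold HTSeq's summary entries, which were left out. No 2 libraries of a group agreed within sampling noise.

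Counts were fitted with edgeR 4.0.16 in R 4.3.3: filterByExpr (14809 genes kept, 9611 removed), TMM scaling and robust quasi-likelihood F tests from 1 group-wise model of the 8 libraries, passing at a Benjamini-Hochberg adjusted p under 0.05. The fit was tested on simulated data whose planted changes were larger than any member's difference, so differences as small as the members' were not covered. The common biological coefficient of variation was 9.33%. Counting error of the members was 2.12% to 8.67% per library. Alternatives were DESeq2 1.42.0, limma-voom (limma 3.58.1), other scalings and filters, a replicate block, only the groups compared, and leaving out each library. Sequences came from GENCODE M21 transcripts and RefSeq (GRCm38.p6).

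Named genes were all members and Shank3, the 3 of each list with the smallest p or, for histone genes, also the highest level, and the 3 nearest in pattern to H1f0, H2afz and H3f3b. Timm22 and the other genes of nearest pattern left out predicted genes. The members and lists were chosen with earlier results of these data known.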

Additional observations from a re-analysis of the deposited data

How the results depend on the processing

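In 405 fits (27 pairs of member and comparison, 15 alternatives each) 0 passed, with the smallest adjusted p at 0.312. In 16 pairs the direction held in all 15. For the genes named from the lists, 0 of 675 fits passed, with the smallest adjusted p at 0.171. The replicate block changed no call. Same-numbered libraries correlated at -0.18 to 0.10 in their deviations from group means, and differently numbered ones at -0.16 to 0.24. Deviations cancel out within groups of 3 and 2, so these values cannot decide whether replicate numbers pair the libraries. With the replicate block, H3f3a in romidepsin against wild type was 0.011 on the log2 scale, from -0.0055, and with only the 2 groups compared H2afy was 0.00014, from -0.0011. The cause was not tested. Members whose groups do not overlap, with alternatives chosen after seeing the data, numbered 1, 3 and 2 with DESeq2 size factors and 3, 3 and 1 with library totals. The shares over all genes were not computed under these scalings.

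Leaving out each library in turn reversed some small log2 differences. Between saline and wild type the range was -0.092 to 0.050 for H2afx, -0.013 to 0.068 for H2afy, -0.045 to 0.11 for H2afy2, -0.042 to 0.047 for H2afj and -0.21 to 0.0092 for Hist3h2ba. Between romidepsin and saline it was -0.069 to 0.012 for H2afy, -0.025 to 0.064 for H2afj and -0.22 to 0.0025 for Hist3h2a. Between romidepsin and wild type it was -0.019 to 0.12 for H1f0, -0.025 to 0.021 for H2afy, -0.013 to 0.069 for H2afj, -0.052 to 0.024 for H3f3a and -0.047 to 0.046 for H3f3b. Differences in share, in percentage points, ranged from -0.106 to 2.54 (H3f3b, saline against wild type), -0.968 to 1.68 (H3f3b, romidepsin against wild type), -0.323 to 0.998 (H2afz, romidepsin against saline) and -1.08 to 1.32 (H2afy, saline against wild type). With 2 romidepsin libraries, leaving 1 out assumes that the other varies like the rest. Counting error was largest for H2afy2, at 8.67% in 1 saline library.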
